A study of Mus musculus with 6 samples.

Results

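The mRNAs of the unfolded protein response (UPR) were followed through 10 genes in 3T3-L1 adipocytes that had received either of 2 adenoviruses, AdLacZ or Ad*Lmo3*. They are the stress sensors *Atf6*, *Ern1* and *Eif2ak3*, the transcription factors *Xbp1*, *Atf4*, *Ddit3*, *Creb3* and *Creb3l2*, and the phosphatase subunits *Ppp1r15a* and *Ppp1r15b*. The genes were chosen by symbol, and all 10 were found among the 24421 gene symbols of the count tables and had enough counts to be tested. *Ddit3* fell with Ad*Lmo3* to 55.9% of its AdLacZ level. It was the gene of the 10 with an adjusted p under 0.05 in edgeR's quasi-likelihood test (0.0471), where 4.28% of all tested genes were called. This call was near the threshold and was lost in 5 of 13 alternative settings. The estimates for the other 9 genes were also below 0, with log2 fold changes between the groups from -0.57 (*Ppp1r15a*) to -0.02 (*Creb3*), none of which passed in edgeR.

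The endoplasmic reticulum (ER) is where secreted and membrane proteins fold, and adipocytes load it heavily because they secrete adipokines. When unfolded proteins collect there, 3 sensors in its membrane respond. ATF6 moves to the Golgi, where proteases release its cytosolic part as a transcription factor for chaperones. IRE1, encoded by *Ern1*, cuts an intron out of the *Xbp1* mRNA so that it encodes the active factor. PERK, encoded by *Eif2ak3*, phosphorylates eIF2α, which slows protein synthesis but favours translation of *Atf4*. Cleavage, splicing, phosphorylation and translation are not seen in counts of reads per gene, which measure the mRNA level only.

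3T3-L1 is a mouse preadipocyte line, grown from a single clone, that differentiates into adipocytes in culture. The labels give its strain as C57BL/6, although the line was derived from Swiss 3T3 cells. All cells were differentiated with insulin (870 nM), TZD (5 µM), Dex (1 µM) and IBMX (500 µM), with Dex and IBMX left out from day 3, and were infected on day 7 with 100 pfu/cell. The AdLacZ group (control) received an adenovirus carrying *LacZ*, and the Ad*Lmo3* group an adenovirus carrying a codon-optimized *Lmo3*. RNA was taken 72 h later from 3 separate infections per group, giving 6 libraries (replicates). No uninfected cells were analysed here, and the effect of infection as such was not measured. The question asked of these libraries is what LMO3 changes in the transcriptome of a mature adipocyte.

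The libraries held 28035639 to 38332335 counts on genes, the smallest being Ad*Lmo3* replicate 3, so that the lowest level taken as detectable (3 counts) was 0.0783 to 0.107 CPM (counts scaled to the library size). *Lmo3* itself had a count of 0 in all 6 libraries. The viral *Lmo3* is codon-optimized, and the labels could not be checked through this gene. Adipocyte markers were present throughout, with a summed level of 11770 to 12214 CPM in AdLacZ and 17646 to 21828 CPM in Ad*Lmo3* libraries. Of these 10 markers, 8 rose, where 2.71% of all tested genes rose. Preadipocyte and fibroblast markers summed to 15513 to 19987 CPM in AdLacZ and 15368 to 22997 CPM in Ad*Lmo3* libraries, and edgeR called 0 of 10 (0 at an unadjusted p under 0.05, and 0 with DESeq2 or limma voom). No marker of either list was at 0 in all libraries. *Ptprc* and *Adgre1*, which define leukocytes and macrophages, were under 3 counts in every library, whereas *Cd68* (40 to 163 counts), *Lyz2* (29 to 67) and *Csf1r* (14 to 30), other genes of that list, were detected in all 6 at up to 4.17 CPM. In bulk RNA, fewer cells of a type and less RNA per cell cannot be told apart, and the part of the adipocyte markers in the UPR results was not tested.

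Across the 12766 genes tested, 4.28% had an adjusted p under 0.05 in the comparison of Ad*Lmo3* with AdLacZ (2.71% rose and 1.57% fell). Of the 10 UPR genes, 1 was called, and it was lower. At an unadjusted p under 0.05 in edgeR there were 6 of 10, where the share of all tested genes was 20.6%. For 5 of the 10, every Ad*Lmo3* library was below every AdLacZ library, which held for 13.2% of all tested genes (26.5% had groups that did not overlap in either direction). The median log2 fold change of the 10 was -0.18, against 0.00 for all tested genes, of which 49.6% were lower in Ad*Lmo3* libraries. The members share a pathway and their libraries, so that these counts are a description.

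**Figure D1:**
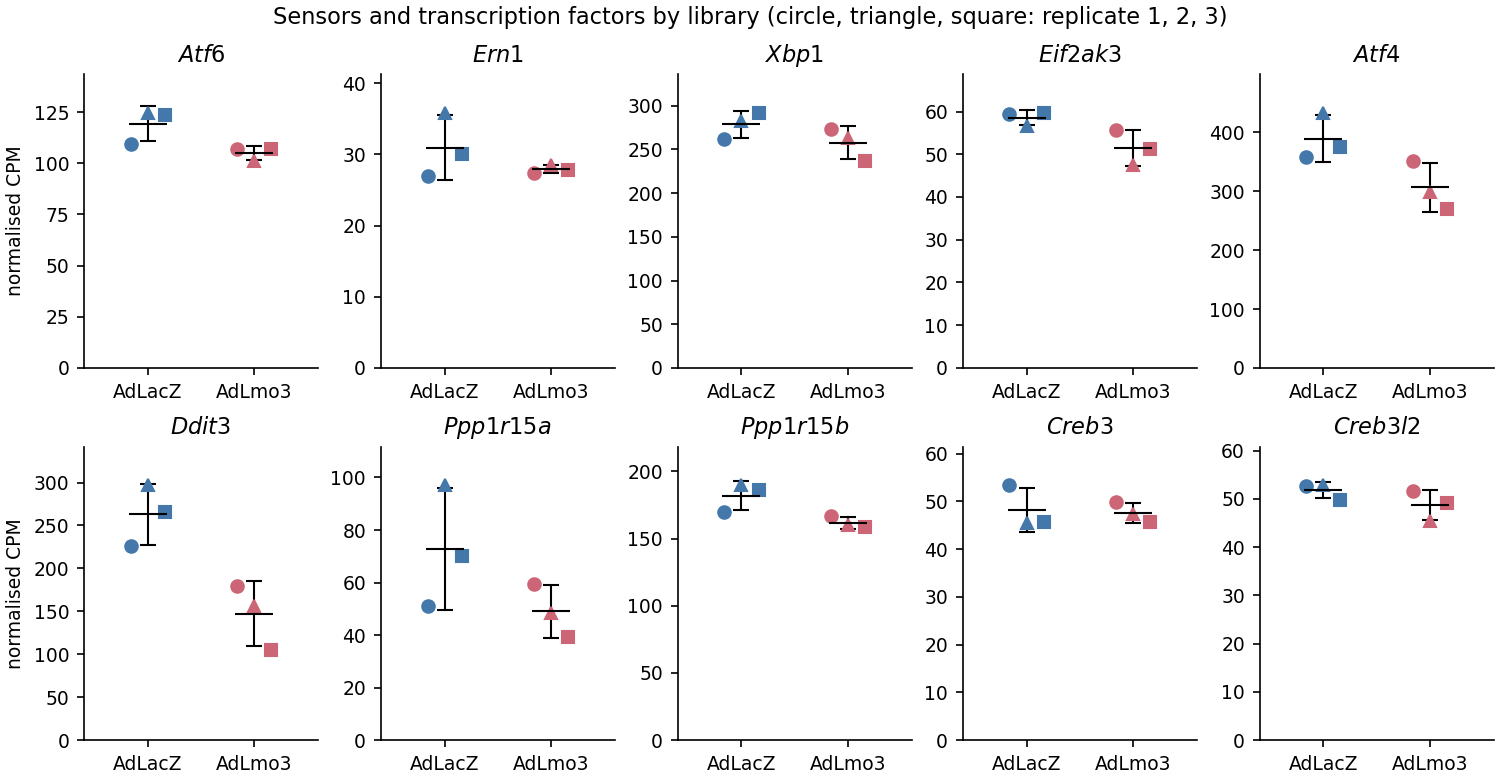
Normalised CPM (y axis, from 0) of each of the 10 genes in the 3 AdLacZ (blue) and 3 Ad*Lmo3* (red) libraries, with the group mean and SD as black bars. The *Ddit3* values of 105 to 179.7 CPM in Ad*Lmo3* lie below the 226 to 297 CPM of AdLacZ, whereas the groups of *Ern1*, *Xbp1*, *Ppp1r15a*, *Creb3* and *Creb3l2* overlap.

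*Atf6* lies on the minus strand of chromosome 1 of GRCm38, from 170704674 to 170867771. It had 109, 125 and 124 CPM in AdLacZ replicates 1, 2 and 3, and 107, 101 and 107 CPM in Ad*Lmo3* replicates 1, 2 and 3. The groups did not overlap, but the lowest AdLacZ value was only slightly above the highest Ad*Lmo3* value. The log2 fold change was -0.18 (standard error, SE, 0.0722, 95% interval -0.35 to -0.02), with an adjusted p of 0.197. The interval is that of the single gene and is not adjusted for the number of genes, so that it can leave out 0 where the adjusted p does not pass.

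*Ern1*, the gene of the kinase and endoribonuclease IRE1, is on chromosome 11 from 106394650 to 106487852. Its AdLacZ libraries had 27.0, 35.9 and 30.0 CPM and its Ad*Lmo3* libraries 27.4, 28.6 and 27.9 CPM. AdLacZ replicate 1 was the lowest of all 6 and AdLacZ replicate 2 the highest, so that the Ad*Lmo3* values lay within the control range. The log2 fold change was -0.15 (SE 0.104, adjusted p = 0.484), with a 95% interval of -0.39 to 0.09.

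*Xbp1*, the substrate of IRE1 and the transcription factor of its arm, lies on the same chromosome from 5520659 to 5525893. It had 262, 282 and 292 CPM in AdLacZ and 274, 263 and 237 CPM in Ad*Lmo3* libraries. Only Ad*Lmo3* replicate 3 was below all controls. The log2 fold change of -0.11 (SE 0.0800, adjusted p = 0.482) had a 95% interval of -0.30 to 0.07. The counts sum both splice forms of *Xbp1*, and the share of the active form was not measured.

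*Eif2ak3*, which encodes PERK, lies on chromosome 6 from 70844515 to 70905245. It had 59.4, 56.5 and 59.8 CPM in AdLacZ and 55.7, 47.4 and 51.2 CPM in Ad*Lmo3* libraries. The groups did not overlap, but AdLacZ replicate 2 and Ad*Lmo3* replicate 1 were close. Its log2 fold change of -0.19 (SE 0.0726, adjusted p = 0.193, 95% interval -0.35 to -0.02) was close to that of *Atf6*. Of its stretches of 75 bp, 4.47% also lie in *Gm43292*. The 3 sensors thus had log2 fold changes between -0.19 and -0.15, and the edgeR test called 0 of them, as did DESeq2 and limma voom. At an unadjusted p under 0.05 in edgeR there were 2 of the 3, where the share of all tested genes was 20.6%.

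*Atf4*, the transcription factor whose translation rises when eIF2α is phosphorylated, lies on chromosome 15 from 80255184 to 80257541. It had 358, 434 and 375 CPM in AdLacZ and 351, 299 and 269 CPM in Ad*Lmo3* libraries. Every Ad*Lmo3* library was below every AdLacZ library, with AdLacZ replicate 1 and Ad*Lmo3* replicate 1 nearest to each other. The log2 fold change was -0.34 (SE 0.115, 95% interval -0.61 to -0.08), and the adjusted p of 0.140 did not pass. DESeq2 gave the same size (-0.34) with an adjusted p of 0.0390; across all alternatives the adjusted p ran from 0.0390 to 0.338.

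*Ddit3* encodes CHOP, a C/EBP-type factor that ATF4 induces and that promotes apoptosis under lasting ER stress. It lies on chromosome 10 from 127290774 to 127296288. Its level was 226, 297 and 265 CPM in AdLacZ and 179.7, 156 and 105 CPM in Ad*Lmo3* libraries. The groups did not overlap, and the spread within Ad*Lmo3* was wide, with replicate 1 at 1.70 times replicate 3. The AdLacZ mean was 263 ± 35.6 CPM (SD, n = 3), the Ad*Lmo3* mean 147 ± 37.9 CPM (n = 3), and the log2 fold change -0.84 (SE 0.187, 95% interval -1.27 to -0.41, adjusted p = 0.0471 from edgeR). The adjusted p was 0.0629, 0.117 and 0.166 without AdLacZ replicate 1, 2 or 3, and 0.144 without Ad*Lmo3* replicate 2. The log2 fold changes in these fits were -0.93, -0.74, -0.83 and -0.88. *Ddit3* stayed called without Ad*Lmo3* replicate 1 (0.0281) or 3 (0.0408). Fits with fewer libraries also called fewer genes in all, 77 without AdLacZ replicate 3 and 152 without Ad*Lmo3* replicate 2, against 547. Whether the lost calls of *Ddit3* come from the library left out or from the smaller number of libraries was not tested. With all 6 libraries, DESeq2 (2.66e-05) and limma voom (0.0436) also called *Ddit3*.

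The 250 bases before the RefSeq start of *Ddit3* and *Atf4*, both induced in other settings by the PERK arm, are shown from GRCm38.p6 so that they can be set beside the elements of the target genes further on. Capitals mark CCAAT or its reverse, ATTGG, the box that binds NF-Y. The *Ddit3* stretch runs from 127290774 on into the first exon of the GENCODE annotation, and that of *Atf4* ends at the base before its first exon.
Ddit3, chr10:127290543-127290792, plus strand: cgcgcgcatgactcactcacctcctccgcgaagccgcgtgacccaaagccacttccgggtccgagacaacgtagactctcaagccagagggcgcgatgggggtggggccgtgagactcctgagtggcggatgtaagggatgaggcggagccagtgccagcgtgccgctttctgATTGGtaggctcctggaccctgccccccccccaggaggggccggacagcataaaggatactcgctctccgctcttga
Atf4, chr15:80254934-80255183, plus strand: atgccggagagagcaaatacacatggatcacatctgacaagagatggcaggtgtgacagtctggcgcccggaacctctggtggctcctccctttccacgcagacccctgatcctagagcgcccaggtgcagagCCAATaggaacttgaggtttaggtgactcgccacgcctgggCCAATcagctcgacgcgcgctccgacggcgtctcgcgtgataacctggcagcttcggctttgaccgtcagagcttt

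The phosphatase that removes the phosphate from eIF2α uses either of a pair of regulatory subunits. *Ppp1r15a* encodes GADD34, the inducible subunit, and lies on chromosome 7 from 45522916 to 45526268. It had 51.2, 97.2 and 70.2 CPM in AdLacZ and 59.4, 48.5 and 39.2 CPM in Ad*Lmo3* libraries. This was the widest spread of the 10 genes among the controls, with AdLacZ replicate 2 at 1.90 times replicate 1, and the groups overlapped. The log2 fold change was -0.57 (SE 0.229, 95% interval -1.10 to -0.04, adjusted p = 0.205), and it ranged from -0.77 without AdLacZ replicate 1 to -0.31 without AdLacZ replicate 2.

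*Ppp1r15b* encodes CReP, the subunit made in unstressed cells, and lies on chromosome 1 from 133131143 to 133139783. Its values were 169.6, 190.0 and 186 CPM in AdLacZ and 167, 159.7 and 159 CPM in Ad*Lmo3* libraries. The groups did not overlap, and both were tight. The log2 fold change was -0.17 (SE 0.0691, 95% interval -0.33 to -0.01, adjusted p = 0.212). Of the stretches of 75 bp in this gene, 10.1% also lie in *Gm26616* on the opposite strand, and the library kit named in the labels does not mark strand.

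*Creb3* and *Creb3l2* encode factors anchored in the ER membrane that, like ATF6, are cut free in the Golgi. *Creb3*, on chromosome 4 from 43562332 to 43567060, had 53.5, 45.5 and 45.7 CPM in AdLacZ and 49.9, 47.3 and 45.6 CPM in Ad*Lmo3* libraries. AdLacZ replicate 1 was the highest and the other 5 libraries lay close together. Its log2 fold change of -0.02 (SE 0.0805, 95% interval -0.20 to 0.17, adjusted p = 0.932) turned to 0.06 without AdLacZ replicate 1 and to 0.01 without Ad*Lmo3* replicate 3. Of its stretches of 75 bp, 13.7% are shared with *Tln1* and *Gba2* on the opposite strand. *Creb3l2*, on chromosome 6 from 37327255 to 37442146, had 52.7, 52.9 and 49.8 CPM in AdLacZ and 51.6, 45.4 and 49.2 CPM in Ad*Lmo3* libraries. The groups overlapped, and the log2 fold change was -0.09 (SE 0.0676, 95% interval -0.24 to 0.07, adjusted p = 0.522).

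**Figure D2:**
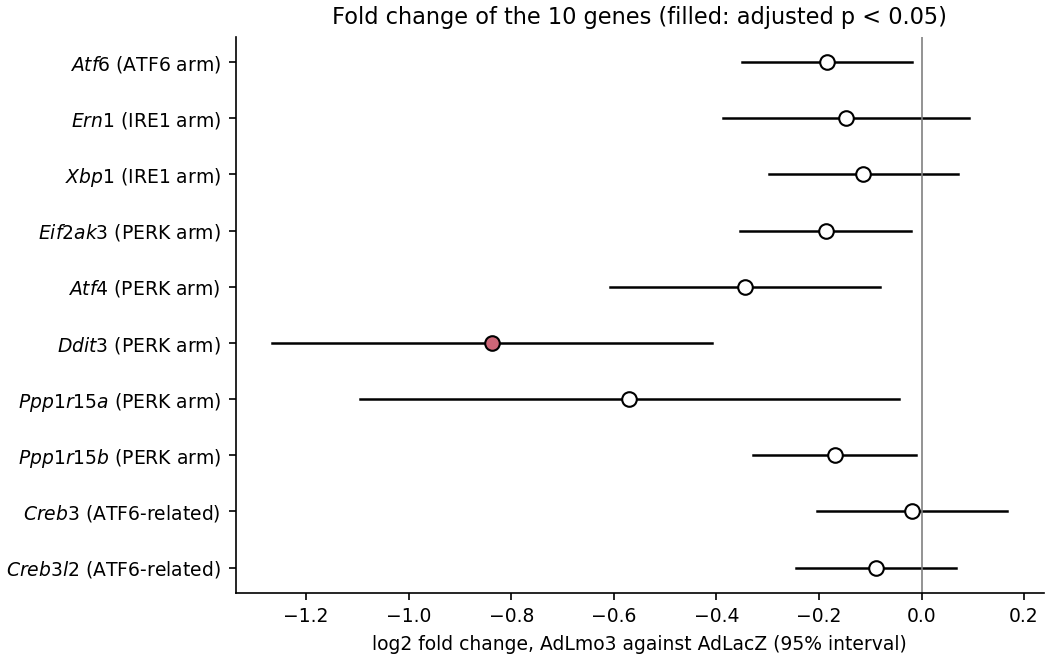
Log2 fold change of Ad*Lmo3* against AdLacZ (x axis) for each gene, named with its arm, with the unadjusted 95% interval as a line and filled points for an adjusted p under 0.05. *Ddit3* at -0.84 is the filled point, and the intervals of *Ern1*, *Xbp1*, *Creb3* and *Creb3l2* cross 0.

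Arm by arm, all 5 genes of the PERK arm were lower with an unadjusted p under 0.05 in edgeR. Of these, 4 had groups that did not overlap and 1 had an adjusted call. Over all tested genes, 20.6% had such an unadjusted p in either direction, and 13.2% had lower groups that did not overlap. Adjusted calls were 4.28% in either direction and 1.57% lower. Of the other 5 genes, *Atf6* alone had an unadjusted p under 0.05 and groups that did not overlap, and edgeR called 0 of them, as did DESeq2 and limma voom. The difference between the arms itself was not tested.

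To set genes against each other without depending on the scaling of a library, the log2 ratio of 2 counts was taken within each library. Ratios of 4 pairs were compared by an exact two-sided permutation test of 3 against 3 libraries, which cannot go below 0.1. *Ddit3* to *Atf4* was -0.66, -0.54 and -0.50 in AdLacZ and -0.97, -0.94 and -1.35 in Ad*Lmo3* libraries. The groups did not overlap, and the means differed by -0.52 (exact permutation p = 0.1, adjusted over the 4 pairs 0.4), so that *Ddit3* was lower relative to *Atf4* in all 3 Ad*Lmo3* libraries, at the smallest p the design allows.

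The ratio of the inducible to the constitutive phosphatase subunit, *Ppp1r15a* to *Ppp1r15b*, was -1.73, -0.97 and -1.41 in AdLacZ and -1.49, -1.72 and -2.02 in Ad*Lmo3* libraries. These groups overlapped, with a difference of -0.37 (exact permutation p = 0.3, adjusted 0.4). *Xbp1* to *Atf6* differed by 0.07 and *Creb3* to *Creb3l2* by 0.07, each with an exact permutation p of 0.4 (adjusted 0.4), and both pairs of groups overlapped.

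**Figure D3:**
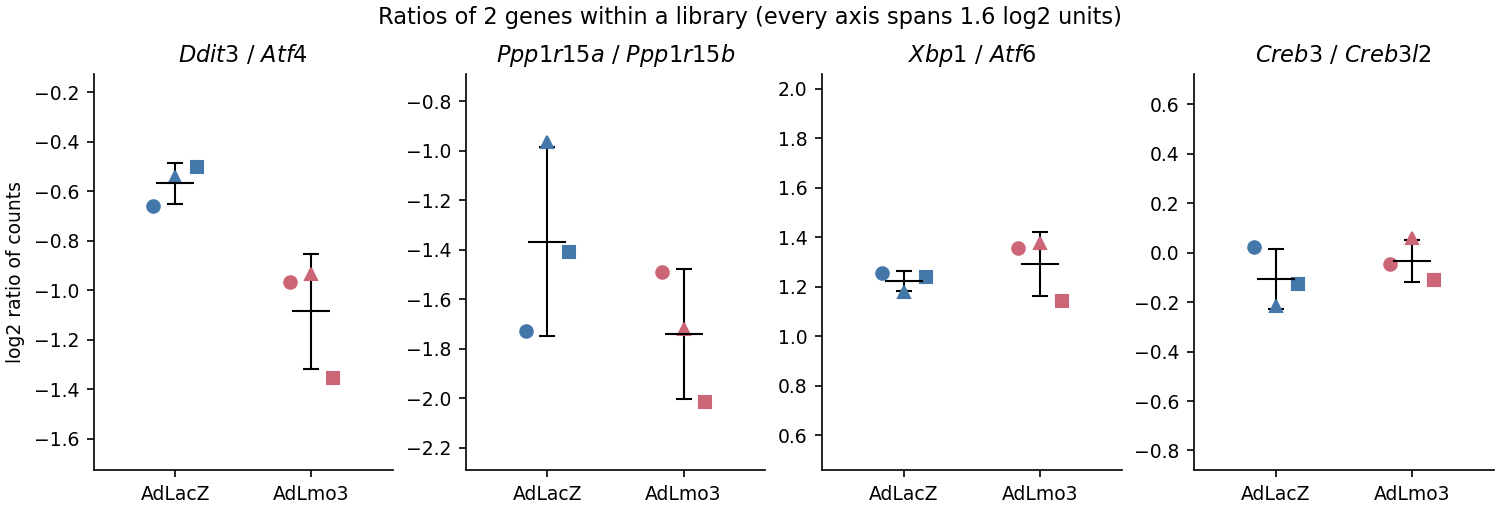
Log2 ratio of the counts of 2 genes within each library (y axis), for 4 pairs, in AdLacZ (blue) and Ad*Lmo3* (red), with mean and SD as black bars and an equal span on every axis. The groups part for *Ddit3* to *Atf4* and overlap for the other 3 pairs.

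Within each group the same library was often the highest or the lowest for the UPR genes. How often it was so over all tested genes was not counted, so that this is a description of the 10 genes only. AdLacZ replicate 1 was the lowest control for 7 of the 10 genes (*Atf6*, *Ern1*, *Xbp1*, *Atf4*, *Ddit3*, *Ppp1r15a*, *Ppp1r15b*) and AdLacZ replicate 2 the highest for 7. Ad*Lmo3* replicate 1 was the highest of its group for 8 and Ad*Lmo3* replicate 3, the shallowest library, the lowest for 6. Against this order, *Creb3* was highest in AdLacZ replicate 1, *Eif2ak3* and *Creb3* were lowest in AdLacZ replicate 2, and *Ern1* was lowest in Ad*Lmo3* replicate 1. The coefficient of variation was largest for *Ppp1r15a* in AdLacZ (31.8%) and *Ddit3* in Ad*Lmo3* (25.8%), and smallest for *Ern1* in Ad*Lmo3* libraries (2.06%).

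Levels of different genes were compared only per kb of merged exon. In AdLacZ libraries *Atf4* had 165 ± 16.9 CPM per kb and *Ddit3* 153 ± 20.8 CPM per kb (SD, n = 3), and the libraries of this pair overlapped. *Xbp1* followed at 85.8 ± 4.83 CPM per kb, *Ppp1r15b* at 32.5 ± 1.94, *Ppp1r15a* at 24.8 ± 7.88 and *Creb3* at 20.3 ± 1.92 CPM per kb. *Ppp1r15a* overlapped both of its neighbours in this order. The sensors and *Creb3l2* were the lowest, with *Atf6* at 12.9 ± 0.929, *Eif2ak3* at 9.72 ± 0.296, *Creb3l2* at 7.12 ± 0.236 and *Ern1* at 3.79 ± 0.554 CPM per kb, and none of these overlapped its neighbours. The order in Ad*Lmo3* libraries was the same except that *Creb3* (20.1 ± 0.908 CPM per kb) stood above *Ppp1r15a* (16.7 ± 3.43 CPM per kb). *Ddit3*, at 85.9 ± 22.1 CPM per kb in Ad*Lmo3* libraries, came near the 79.3 ± 5.87 CPM per kb of *Xbp1*, and the libraries of this pair overlapped there.

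**Figure D4:**
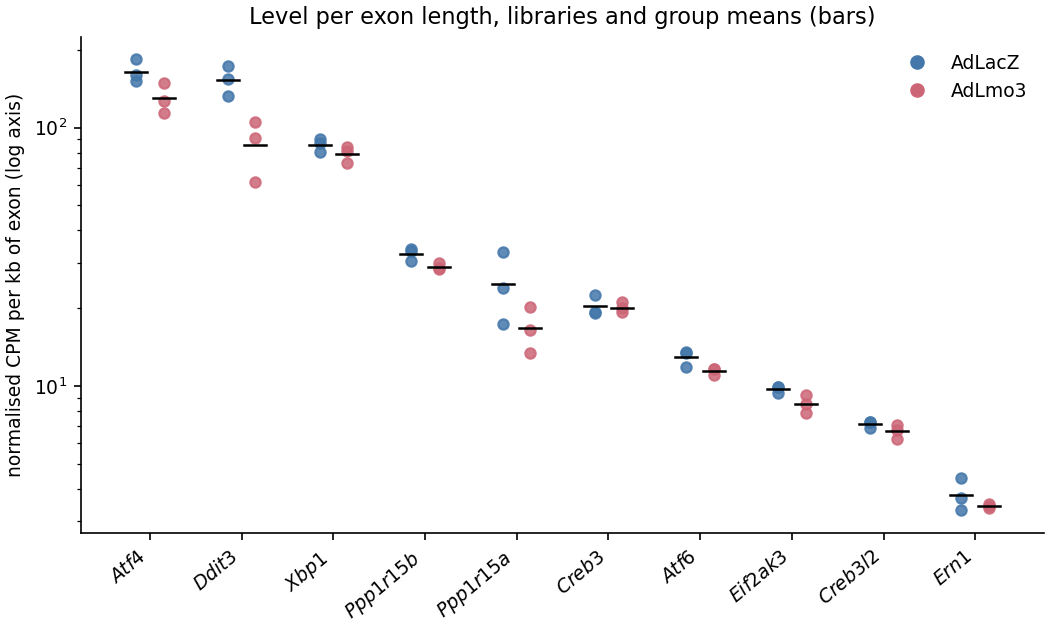
Normalised CPM per kb of merged exon (y axis, log scale) of the 10 genes in the order of their AdLacZ mean, with each library as a point and the group mean as a bar. *Atf4*, *Ddit3* and *Xbp1* lie above the other 7 genes in every library, and *Ern1* is the lowest.

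The genes that these factors act on were read from lists of the pathway. Of 15 ER folding genes of the ATF6 type, 14 fell and 0 rose (15 were lower at an unadjusted p under 0.05), and all 15 had groups that did not overlap, where 1.57% of all tested genes fell and 13.2% had lower groups that did not overlap. Their median log2 fold change was -0.73. *Sdf2l1*, a cofactor of ER chaperones, changed by -1.58 (SE 0.122, adjusted p = 0.00243), the chaperone *Calr* by -1.19 (0.106, 0.00352), *Hspa5*, which encodes the chaperone BiP that holds the sensors inactive, by -1.16 (0.172, 0.0123) and the secreted factor *Manf* by -1.10 (0.146, 0.00823). *Ppib* (-0.23, adjusted p = 0.108) was the gene that did not pass. The count was 3 without AdLacZ replicate 3, where *Hspa5* (edgeR's adjusted p = 0.0711) and *Manf* (0.0529) were not called, and 8 without Ad*Lmo3* replicate 2, where *Hspa5* (0.0691) was not. The list was chosen with earlier results of these data known and is not independent evidence of its direction.

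Of 21 genes of translocation and ER-associated degradation of the XBP1 type, 20 were tested. Of these, 6 fell and 0 rose, where 1.57% of all tested genes fell and 2.71% rose, and the median was -0.20. The groups of 14 did not overlap and were lower (13.2% of all tested genes) and those of 2 higher (13.3%). *Dnajb11*, a co-chaperone of BiP, changed by -0.74 (SE 0.0683, adjusted p = 0.00352), *Edem1*, which passes misfolded glycoproteins to degradation, by -0.58 (0.0782, 0.00910), *Derl1* by -0.37 (0.0741, 0.0325) and the ubiquitin ligase *Syvn1* by -0.36 (0.0777, 0.0420). *Derl1* was called in none of the fits that left out 1 of the 6 libraries (edgeR's adjusted p from 0.0590 to 0.135), and *Syvn1* only in that without AdLacZ replicate 1 (0.0756 to 0.161 in the other 5). *Edem1* lost its call without AdLacZ replicate 3 (0.0560) or Ad*Lmo3* replicate 2 (0.0542). *Dnajb9*, a well known target of XBP1, was at 101, 102 and 108 CPM in AdLacZ and 120.5, 111 and 120.2 CPM in Ad*Lmo3* libraries. Its groups did not overlap, in the direction opposite to the rest (log2 fold change 0.17, SE 0.0643, adjusted p = 0.173), as was the case for *Edem2* (0.17, adjusted p = 0.166). The count of 6 became 3 without AdLacZ replicate 1 or 2 or Ad*Lmo3* replicate 1, to 2 without Ad*Lmo3* replicate 3, and to 1 without AdLacZ replicate 3 or Ad*Lmo3* replicate 2.

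Of 25 listed targets of ATF4 and CHOP, 24 were tested, of which 7 fell and 0 rose (1.57% and 2.71% of all tested genes). Their median was -0.37, and 13 of the 24 had groups that did not overlap, all lower (13.2% of all tested genes). *Fgf21*, a secreted hormone, changed by -2.15 (SE 0.300, adjusted p = 0.0102) at a low level, with 1.74, 1.54 and 1.53 CPM in AdLacZ and 0.432, 0.217 and 0.444 CPM in Ad*Lmo3* libraries. The pseudokinase *Trib3* changed by -0.91 (0.130, 0.0111), *Nupr1* by -0.80 (0.0864, 0.00352) and *Chac1*, which breaks down glutathione, by -0.56 (0.110, 0.0308). When single libraries were left out, *Chac1* was called only without AdLacZ replicate 1 (edgeR's adjusted p from 0.0568 to 0.137 without each of the other 5), and *Trib3* (0.0671) and *Fgf21* (0.0558) lost their calls without AdLacZ replicate 3. Several well known targets did not pass, among them *Asns* (-0.05, adjusted p = 0.772), the asparagine synthetase gene, and *Slc7a11* (0.64, adjusted p = 0.291), of the cystine transporter. *Slc7a11* had 18.5, 13.8 and 14.1 CPM in AdLacZ and 17.2, 17.1 and 38.4 CPM in Ad*Lmo3* libraries, so that Ad*Lmo3* replicate 3 stood above all others and the other two lay within the control range. DESeq2 called 12 of the list, and the count was 3 without AdLacZ replicate 2 or Ad*Lmo3* replicate 2, 1 without AdLacZ replicate 3 and 4 without Ad*Lmo3* replicate 3.

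The 7 mRNAs listed as substrates that IRE1 degrades had 0 calls in edgeR, DESeq2 and limma voom (1 at an unadjusted p under 0.05, *Col6a1*, which was higher) and a median of 0.07. Over all tested genes, 20.6% had an unadjusted p under 0.05 in edgeR, which is the share to set beside this count and those of the lists that follow. Of 16 genes that process or assist the sensors, edgeR called 0 (4 lower at an unadjusted p under 0.05, 2 called by DESeq2 and 1 by limma voom), with a median of -0.09. *Tmbim6*, an inhibitor of IRE1, was nearest to the threshold among them (-0.35, adjusted p = 0.0531) and was named after its value was seen. Of the 6 tested relatives of the sensors and membrane-bound factors, edgeR called 0 (2 at an unadjusted p under 0.05, 1 by DESeq2, 0 by limma voom), with log2 fold changes from -0.27 to -0.07. *Atf6b*, the paralogue of *Atf6*, had 92.8, 87.7 and 92.1 CPM in AdLacZ and 83.6, 77.1 and 78.0 CPM in Ad*Lmo3* libraries, groups that did not overlap (-0.19, adjusted p = 0.130). *Ern2* and *Creb3l3* had too few counts to be tested.

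Among 8 genes of the other eIF2α kinases and of eIF2B, the exchange factor that phosphorylated eIF2α blocks, 1 fell (1.57% of all tested genes). This was *Eif2b2* (log2 fold change -0.31, SE 0.0642, adjusted p = 0.0389), which lost its call when any of the 6 libraries was left out. *Eif2ak2*, the kinase PKR that interferon induces, had 153, 148 and 179.5 CPM in AdLacZ and 117, 154 and 249 CPM in Ad*Lmo3* libraries. Interferon response genes varied alike, with a summed level of 1194 to 1595 CPM in AdLacZ and 616 to 3337 CPM in Ad*Lmo3* libraries, and edgeR called 0 of 9 (0 at an unadjusted p under 0.05, and 0 with DESeq2 or limma voom). Within the Ad*Lmo3* group replicate 3 was the highest for *Eif2ak2* and for all 9 interferon response genes, and the lowest for *Ddit3*, *Atf4* and *Xbp1*. Without that library *Ddit3* had a log2 fold change of -0.65 and an adjusted p of 0.0408 in edgeR. Leaving it out also removes whatever else sets this library apart. The part of the interferon response in these values was not tested.

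**Figure D5:**
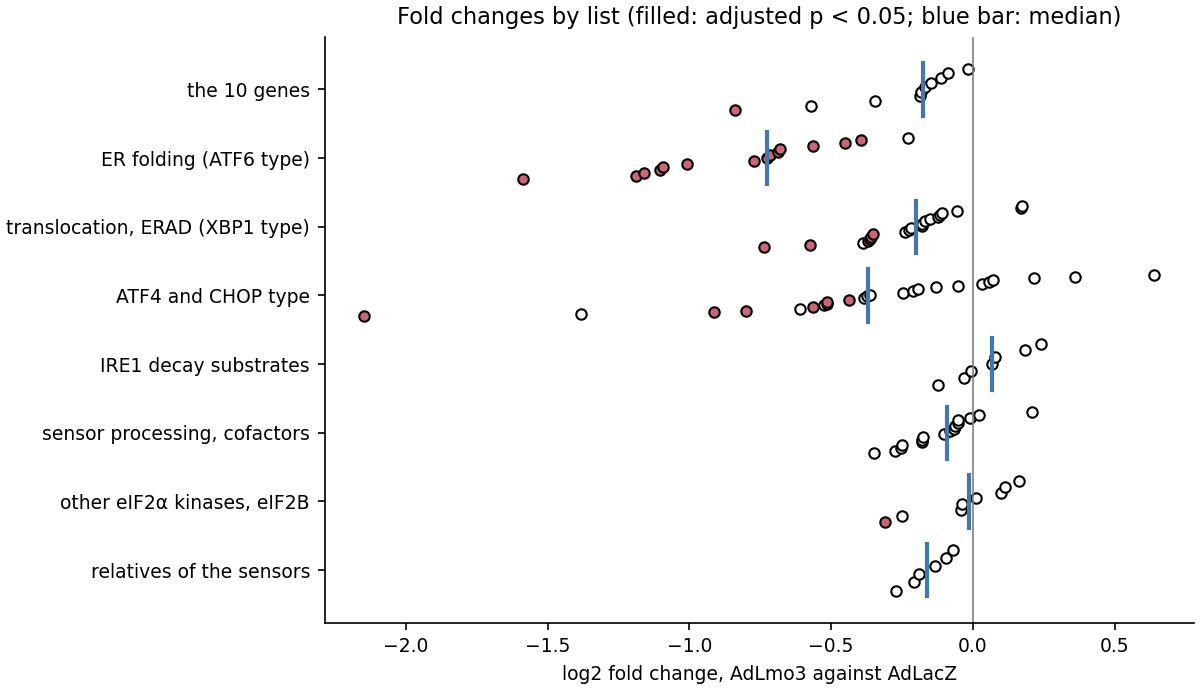
Log2 fold change of Ad*Lmo3* against AdLacZ (x axis) for the tested genes of each list (rows), with filled points for an adjusted p under 0.05 and a blue bar at the median. The ER folding genes lie furthest left as a list, with a median of -0.73, against -0.18 for the 10 sensors and factors.

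Elements that the UPR factors are known to bind were searched for in the promoters of these targets, most of which held no match, and those found are set beside the promoters of *Ddit3* and *Atf4*. The 250 bases before each RefSeq start (GRCm38.p6) were searched on both strands. Only exact matches in this window were counted, so that an element with a changed base or further upstream would be missed. The ER stress response element (ERSE), CCAAT and CCACG with 9 bases between them, bound by ATF6 with NF-Y, was found in 0.113% of 32851 promoters. It was in 7 of the 13 ER folding genes with a promoter in the table, in 2 of 16 of the XBP1-type list and in 0 of 8 of the UPR sensors and factors. The lines below give the elements of the tested list genes that have one, 5′ to 3′ on the strand named, with the CCAAT and CCACG ends in capitals; *Hsp90b1* has 2, of which the nearer to its start is shown.
Hspa5, chr2:34772025-34772043, plus strand: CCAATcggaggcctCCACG
Calr, chr8:84847075-84847093, plus strand: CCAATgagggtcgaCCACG
Hsp90b1, chr10:86705533-86705551, plus strand: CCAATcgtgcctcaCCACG
Creld2, chr15:88819520-88819538, minus strand: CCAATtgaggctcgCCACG
Pdia6, chr12:17266491-17266509, plus strand: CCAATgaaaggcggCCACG
Dnajc3, chr14:118937827-118937845, plus strand: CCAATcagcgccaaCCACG
Canx, chr11:50325800-50325818, minus strand: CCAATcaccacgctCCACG
Syvn1, chr19:6046532-6046550, plus strand: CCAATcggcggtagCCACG

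All 8 of these genes fell, with log2 fold changes from -1.19 (*Calr*) to -0.36 (*Syvn1*), and *Hsp90b1*, *Creld2*, *Pdia6*, *Dnajc3* and *Canx* changed by -1.09, -1.01, -0.69, -0.56 and -0.40. Across the genome 35 genes had an ERSE in this window and 17 were tested, of which 8 fell and 0 rose, where 1.57% of all tested genes fell. These 8 are the genes shown. The other 9 tested genes with an ERSE are in none of the lists, and edgeR, DESeq2 and limma voom called 0 of them. At an unadjusted p under 0.05 in edgeR there were 2 of the 9, where the share of all tested genes was 20.6%. Of the 8, 7 are in the folding list, where 14 of 15 genes fell whether or not they had a match. *Sdf2l1*, which had the largest fall of that list, had no ERSE match in the window. The same held for *Pdia3*, *Pdia4*, *Herpud1* and *Sel1l*, which fell by -0.68, -0.73, -0.72 and -0.45, and for *Ppib*, which did not pass.

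The C/EBP-ATF response element (CARE), searched as TGATGNAA and bound by ATF4 with a C/EBP partner, was in 3.45% of promoters, in 7 of 23 promoters of the ATF4 and CHOP list and in 0 of the 8 of the sensors and factors. Elements of called and uncalled targets are given with 6 bases on each side in lower case.
Fgf21, chr7:45615616-45615635, plus strand: gacggaTGATGCAAtggggg
Nupr1, chr7:126625567-126625586, plus strand: cctgtcTGATGCAAtctggc
Chac1, chr2:119351043-119351062, minus strand: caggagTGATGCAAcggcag
Asns, chr6:7693219-7693238, minus strand: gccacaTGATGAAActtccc
Atf3, chr1:191183430-191183449, plus strand: acttggTGATGCAAgtgcga

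Of the 7 list genes with a CARE, 3 fell (*Fgf21*, *Nupr1*, *Chac1*), and *Asns*, *Atf3*, *Vldlr* and *Slc7a11* did not pass. Across all genes, 231 with a CARE were tested, of which 10 fell and 6 rose, where 1.57% of all tested genes fell and 2.71% rose. The shorter ERSE-II (ATTGG and CCACG with 1 base between them) was in 0.0304% of promoters and in *Herpud1* among the folding genes, and the UPR element core (TGACGTGG) in 0.563%; neither was in the 8 promoters of the sensors and factors. *Atf6* and *Ppp1r15b* had no entry in the promoter table. A CCAAT box alone (33.8% of promoters) was found in *Ddit3*, *Atf4*, *Eif2ak3* and *Creb3l2*. A match is a description of letters, overlapping by construction for CCAAT and ERSE, and says nothing of binding in these cells.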

How the data were processed

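The authors sequenced single reads of 75 bp from 3 AdLacZ and 3 Ad*Lmo3* libraries, mapped them with STAR (version 2.5.0b in the submitters' processing notes) to mm10, and deposited raw read counts, 1 whole number per gene symbol and library. The counting program, annotation and strand setting are not given in the sources used here. Reads on no gene (7.15% to 8.94% of a library) or on several (0.476% to 0.543%) were left out. Groups come from the sample titles.

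edgeR 4.0.16 in R 4.3.3 was run on all genes passing filterByExpr, with TMM scaling, the quasi-likelihood test and no replicate block, and p-values were adjusted (Benjamini-Hochberg) over the 12766 tested genes with a threshold of 0.05. CPM use the TMM scaling. Totals were 28035639 to 38332335 counts, and floors of 3 counts cover counting error only. Ratios used a pseudocount of 0.5 counts. Alternatives were DESeq2 1.42.0, limma 3.58.1 (voom), other scaling and filters, the replicate number as a block, no pseudocount, coding length and leaving out each library. On counts simulated for this comparison (12683 genes), edgeR recovered 92 of 99 genes changed by 1 and 99 of 100 changed by 2 on the log2 scale, with 4.50% false calls. The simulation gave genes of like level the same spread and no variation shared within a library. Recovery can therefore be lower for genes that vary more. Replicates differed beyond sampling noise (chi-square per degree of freedom 22.9 to 61.6).

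Positions, exon lengths and shared stretches of 75 bp come from GENCODE M21 (GRCm38), promoters from RefSeq (GRCm38.p6). Named genes were the 10 members, up to 4 called genes with the largest change of each pathway list, and genes of the relatives and eIF2 lists. *Ppib*, *Pdia3*, *Pdia4*, *Herpud1*, *Sel1l*, *Dnajb9*, *Edem2*, *Col6a1*, *Asns*, *Slc7a11*, *Tmbim6* and the genes whose elements are shown were added after their values were seen. The members and lists were chosen with earlier results of these data known. No mitochondrially encoded gene matched by symbol, and macrophage and endothelial markers summed to at most 5.86 and 2.38 CPM. Figures were drawn with matplotlib 3.10.9.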

Additional observations from a re-analysis of the deposited data

How the results depend on the processing

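The direction of 9 of the 10 genes held under all 13 alternatives; *Creb3* had a log2 fold change of -0.058 to 0.062 when single libraries were left out, being above 0 without AdLacZ replicate 1 and without Ad*Lmo3* replicate 3 (0.01). The number of genes called among the 10 was 2 with DESeq2 (*Atf4* and *Ddit3*) and 0 with the replicate block, and 0 to 1 when single libraries were left out, where the call of *Ddit3* was lost in 4 of 6 cases. Over all genes, 1110 were called with DESeq2 against 547, and 77 (without AdLacZ replicate 3) to 501 without single libraries; the pathway lists together had 28 calls, and 5 to 24 without single libraries. Leaving out a library also lowers the number of libraries, and the cause of these differences was not tested. Scaling by RLE or upper quartile and both count filters left *Ddit3* called.

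Same-numbered libraries deviated from their group means with correlations of 0.03, 0.18 and 0.18, and differently numbered ones with -0.26 to 0.15. Not every same-numbered pair passed 0.1, so that the numbers were not taken to pair the samples. These values do not settle whether the samples were paired, and the block is given as an alternative. With the replicate block 498 genes were called, 400 of them shared with the fit without it, and *Ddit3* had an adjusted p of 0.0532 at -0.86. The block also ended the calls of *Derl1* (0.0592), *Syvn1* (0.0572) and *Eif2b2* (0.0669), leaving 3 calls in the XBP1-type list and 0 in the list of eIF2α kinases and eIF2B, and 13 and 7 in the folding and the ATF4 and CHOP lists. For the ratio of *Ddit3* to *Atf4* the replicate block gave -0.52 (exact sign-flip permutation p = 0.25, the smallest that this test can give here).

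Per kb of coding sequence, in place of merged exon, the AdLacZ levels were 522 CPM (*Ddit3*), 371 (*Atf4*), 348 (*Xbp1*), 87.0 (*Ppp1r15b*), 60.7 (*Atf6*), 39.9 (*Creb3*), 37.0 (*Ppp1r15a*), 33.2 (*Creb3l2*), 17.5 (*Eif2ak3*) and 10.6 (*Ern1*), so that *Ddit3* and *Atf4* exchanged places, *Atf6* moved above *Creb3* and *Ppp1r15a*, *Creb3* above *Ppp1r15a*, and *Creb3l2* above *Eif2ak3*.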

Other observations

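*Ero1l*, which encodes the oxidase that recycles protein disulphide isomerases and is a listed target of CHOP, varied more between libraries than between groups. Its AdLacZ libraries had 659, 2248 and 1511 CPM and its Ad*Lmo3* libraries 1037, 1255 and 603 CPM, a log2 fold change of -0.61 (SE 0.415, edgeR's adjusted p = 0.463). AdLacZ replicate 1 was the lowest control and replicate 2 the highest, as for *Ppp1r15a*, and Ad*Lmo3* replicate 3 the lowest of all. *Ddit4*, with 50.8, 153 and 102 CPM in AdLacZ against 121, 179 and 92.6 CPM for Ad*Lmo3*, had the same order among the controls (log2 fold change 0.36, edgeR's adjusted p = 0.647). These genes were named after their values were seen.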
